A study of Homo sapiens with 12 samples.

Results

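The 41 genes described here encode the protein-folding stress machinery of the cell: cytosolic and mitochondrial heat shock proteins, their cochaperones and transcription factors, and the sensors, factors, chaperones and feedback genes of the unfolded protein response of the endoplasmic reticulum (ER). They were chosen by gene symbol, with no threshold on a value, but the list was drawn up with earlier results of these data known. All 41 are among the 51838 genes counted, and all 41 were among the 28141 genes that passed the filter on low counts. The counts come from 12 RNA-seq libraries of HCC70 and MDA-MB-231, established human breast cancer cell lines that the labels class as basal-like. Each line was grown for 4 h with 100 nM dexamethasone, a synthetic glucocorticoid, or with the same volume of pure ethanol, and each of the 4 groups holds 3 libraries. The medium was RPMI for HCC70 and DMEM for MDA-MB-231, both with serum, and its effect cannot be told apart from that of the line wherever the lines are compared. Each line stands for itself alone. The labels do not tell if the libraries of a group are separate cultures, and the p-values therefore cover only the spread of these libraries, which may be technical.

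Heat shock genes are switched on by heat shock factor 1 (HSF1), which binds heat shock elements in their promoters when unfolded protein builds up in the cytosol. In the ER, unfolded protein is sensed by PERK (gene EIF2AK3), IRE1 (ERN1) and ATF6. PERK slows translation and raises ATF4 protein, IRE1 splices XBP1 mRNA, and cleaved ATF6 enters the nucleus, where these factors act on ER stress elements and related sites. The glucocorticoid receptor, which dexamethasone activates, is itself a client of cytosolic chaperones: HSP70 and HSP90 with their cochaperones hold it in a state that can bind hormone. Changes of transcript splicing, protein cleavage and translation, through which much of this pathway runs, are not measured by gene counts.

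The promoters of 5 members are shown because the results turn on these genes: HSPA1A, HSPA1B and HSPB8 fell in MDA-MB-231, HERPUD1 rose there, and HSPA5 is the main ER chaperone. They are RefSeq sequences of GRCh38.p14, 300 bases long and written 5′ to 3′ on the strand of the gene, from 250 bases before the start of transcription to 50 after it. HSPA1A lies at chr6:31815293-31815592 (plus strand), HSPA1B at chr6:31827488-31827787 (plus strand) and HSPB8 at chr12:119178681-119178980 (plus strand), and capitals mark matches to a heat shock element of 2 units, GAANNTTC. In HSPA5, at chr9:125241294-125241593 (minus strand), capitals mark the ER stress element (ERSE, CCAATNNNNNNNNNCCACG), and in HERPUD1, at chr16:56931892-56932191 (plus strand), the ERSE-II, ATTGGNCCACG.
HSPA1A: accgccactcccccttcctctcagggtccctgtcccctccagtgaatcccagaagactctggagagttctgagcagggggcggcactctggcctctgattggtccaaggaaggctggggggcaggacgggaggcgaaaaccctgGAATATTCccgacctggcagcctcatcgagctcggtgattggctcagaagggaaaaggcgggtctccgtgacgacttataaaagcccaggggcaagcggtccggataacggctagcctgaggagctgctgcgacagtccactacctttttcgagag
HSPA1B: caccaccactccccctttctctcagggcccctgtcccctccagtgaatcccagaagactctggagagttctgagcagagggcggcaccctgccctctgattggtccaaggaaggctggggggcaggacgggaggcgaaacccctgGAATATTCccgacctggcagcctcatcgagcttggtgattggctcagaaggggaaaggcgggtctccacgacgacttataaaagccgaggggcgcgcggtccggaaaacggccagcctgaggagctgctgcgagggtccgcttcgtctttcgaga
HSPB8: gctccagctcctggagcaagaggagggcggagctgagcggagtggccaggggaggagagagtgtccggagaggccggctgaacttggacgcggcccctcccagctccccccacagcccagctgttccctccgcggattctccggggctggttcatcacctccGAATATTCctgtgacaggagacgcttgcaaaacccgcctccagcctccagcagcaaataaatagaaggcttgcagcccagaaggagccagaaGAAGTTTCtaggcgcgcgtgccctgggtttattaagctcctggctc
HSPA5: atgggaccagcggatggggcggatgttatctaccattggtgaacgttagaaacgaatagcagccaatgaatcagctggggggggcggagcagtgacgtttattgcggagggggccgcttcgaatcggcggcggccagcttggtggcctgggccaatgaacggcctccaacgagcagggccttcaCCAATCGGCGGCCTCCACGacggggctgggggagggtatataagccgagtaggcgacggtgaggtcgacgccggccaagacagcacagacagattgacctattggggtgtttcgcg
HERPUD1: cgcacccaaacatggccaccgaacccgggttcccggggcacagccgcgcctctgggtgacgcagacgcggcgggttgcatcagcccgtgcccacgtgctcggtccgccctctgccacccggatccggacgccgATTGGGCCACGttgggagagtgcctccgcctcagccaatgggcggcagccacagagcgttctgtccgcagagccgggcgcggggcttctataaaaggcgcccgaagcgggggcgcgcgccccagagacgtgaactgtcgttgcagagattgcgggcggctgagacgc

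The HSPA1A and HSPA1B windows are near copies: 277 of 299 aligned bases (92.6%) were identical, and the heat shock element lay at bases -106 to -99 from the start in HSPA1A and -105 to -98 in HSPA1B. HSPB8 held this element at -88 to -81 and again at 5 to 12. A promoter was found for 40 of the 41 members and each motif was searched on both strands. The heat shock element of 2 units was present in 5 of the 40 (12.5%), namely HSPA1A, HSPA1B, HSPB1, HSPB8 and DNAJB6, against 6.87% of all 27305 promoters. Its form of 3 units, GAANNTTCNNGAA, was present in DNAJB6 at -131 to -119, where it contains the 2-unit match, and in 0.487% of all promoters. The ERSE was present in 6 members (15%), against 0.0806% of all promoters: XBP1, HSPA5, HSP90B1, CALR, CANX and CRELD2. These 6 genes include the main ER chaperones and lectins, and none of them passed the test under dexamethasone in either line. The ERSE-II was present in SDF2L1 and HERPUD1 (5% of the 40, against 0.0549% of all promoters). The C/EBP-ATF element TGATGNAAN, the kind of site that ATF4 binds with a C/EBP partner, was present in HERPUD1 and CHAC1, against 3.67% of all promoters. The core of the unfolded protein response element, TGACGTGG (0.795% of all promoters), and a glucocorticoid response element, GNACANNNTGTNC (0.388%), were in no member's window. A match only says that these letters are there, and 26 members held none of the 7 motifs. The 2-unit heat shock element, the ERSE-II and the glucocorticoid response element were added to the search after the data had been seen.

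Depth ran from 106345287 to 123218973 counts per library, and the members took 0.6605% to 0.7294% of them. Levels are given in CPM, the count of a gene relative to the TMM-scaled size of its library. In such bulk samples a smaller number of cells that make a transcript and less of it per cell cannot be told apart. At this depth 3 counts over a group, the limit that a count of 0 allows, equal 0.00782 to 0.00898 CPM, counting error only. Known target genes of the glucocorticoid receptor were higher after dexamethasone in both lines: FKBP5 went from 35.2 to 218 CPM in HCC70 and from 56.2 to 1119 CPM in MDA-MB-231, and TSC22D3 from 152 to 409 and from 5.69 to 164 CPM. Among the markers of the basal-like label, EGFR stood at 328 and 356 CPM in the vehicle groups of HCC70 and MDA-MB-231, but the basal keratins KRT5, KRT14 and KRT17 stood at 2595, 86.7 and 254 CPM in HCC70 and at 0.804, 0.238 and 1.28 CPM in MDA-MB-231. TP63, a further basal marker, was low in both, at 1.37 CPM in HCC70 and 0.326 CPM in MDA-MB-231. Of the luminal receptors, ERBB2 stood at 194 and 105 CPM and ESR1 at 3.94 and 0.0713 CPM. PGR was at or under 0.016 CPM in both. MDA-MB-231 had 2212 CPM of the mesenchymal marker VIM against 145 in HCC70. Of the epithelial markers, CDH1 was at 2.28 CPM in MDA-MB-231 against 517 in HCC70 and EPCAM at 15.3 against 99.5, whereas KRT8 was at 818 against 1164 and KRT18 at 706 against 435. Of the markers of leukocytes, endothelium and fibroblasts, PTPRC, CD3E, CDH5 and DCN were at or under 0.186 CPM in vehicle in both lines, while CD68 was at 23.5 and 65.7 CPM and COL1A1 at 72.1 and 22.2 CPM in HCC70 and MDA-MB-231. In MDA-MB-231 the libraries of vehicle replicate 1 and dexamethasone replicate 2 stood apart from the other libraries of their groups: a member's deviation from its group mean went with the GC content of its transcript in them (Spearman's rho over the 41 members 0.801 and 0.693), and against it in the other 4 libraries of that line (-0.648 to -0.575). Deviations from a mean of 3 libraries sum to 0, so the negative values partly follow from the positive ones. In HCC70, vehicle replicate 1 had a rho of -0.562, and the other libraries of that line lay between -0.301 and 0.298.

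After 4 h of dexamethasone, 13 of the 41 members had changed in at least 1 line, 3 of them in both, and 28 in neither. Calls are by edgeR's quasi-likelihood test with Benjamini-Hochberg adjustment over all 28141 genes at 0.05. In HCC70, 3 members rose (DNAJB1, HSPB1, TRIB3) and 1 fell (DNAJB4), which is 9.76% of the 41. Of all genes tested, 3.96% were called in that line, 2.55% higher and 1.4% lower. In MDA-MB-231, 4 members rose (DNAJB1, DNAJB4, EIF2AK3, HERPUD1) and 8 fell (HSPA1A, HSPA1B, HSPA2, HSPB8, BAG1, ATF5, TRIB3, PPP1R15A), 29.3% of the 41. The share among all genes was 14.6% in that line, 6.65% higher and 7.96% lower. Members are mostly abundant genes: of the 8223 tested genes with a mean of at least 20 CPM, 6.37% were called in HCC70 and 23.1% in MDA-MB-231, against 4 and 11 of the 34 members above that level. The median log2 change over the 41 was -0.01 in HCC70 and 0.02 in MDA-MB-231, beside -0.01 in each line over all genes. The ranges of treated and vehicle libraries were apart for 15 members in HCC70 (7 above, 8 below) and for 14 in MDA-MB-231 (7 above, 7 below). That is 36.6% and 34.1% of the members, and 32.4% and 27.2% of all genes did so.

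**Figure D1:**
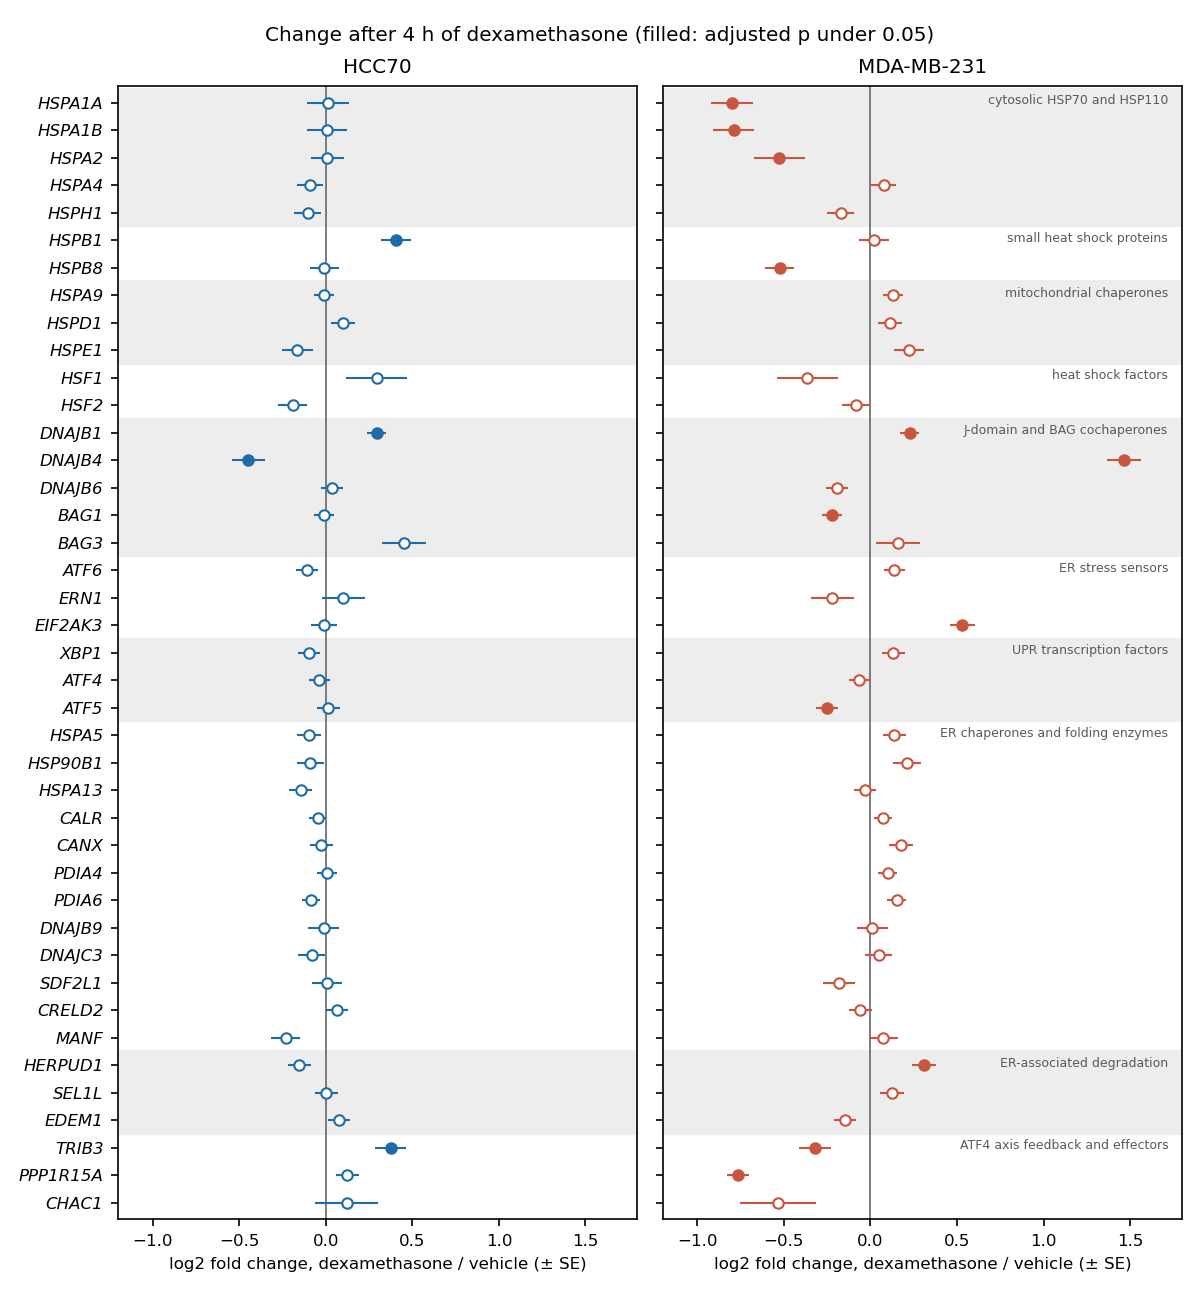
Log2 fold change (x axis, ± SE from the model, n = 3 libraries a group) of each of the 41 members (y axis, grouped by role) after 4 h of dexamethasone in HCC70 (left) and MDA-MB-231 (right), with filled points where the adjusted p was under 0.05. Most points sit near 0, DNAJB4 lies at 1.47 in MDA-MB-231 and -0.45 in HCC70, and HSPA1A, HSPA1B and PPP1R15A lie between -0.80 and -0.76 in MDA-MB-231.

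The counts of called members depended on the libraries, and so did the calls over all genes. In HCC70 the count of 3 higher and 1 lower became 1 and 1 without dexamethasone replicate 1 or vehicle replicate 3, 1 and 0 without dexamethasone replicate 2, 2 and 0 without dexamethasone replicate 3 or vehicle replicate 2, and 0 and 0 without vehicle replicate 1. It was 4 and 1 without MDA-MB-231 dexamethasone replicate 2, vehicle replicate 1 or vehicle replicate 3. Without MDA-MB-231 dexamethasone replicate 3 it was 2 and 1. Over all genes, 1114 calls in HCC70 became 510 to 810 when 1 HCC70 library was left out. In MDA-MB-231 the count of 4 higher and 8 lower became 9 and 10 without dexamethasone replicate 2, 7 and 9 without vehicle replicate 3, 4 and 5 without dexamethasone replicate 1, 5 and 5 without vehicle replicate 1, 3 and 5 without vehicle replicate 2, and 3 and 4 without dexamethasone replicate 3. Over all genes, 4110 calls in MDA-MB-231 became 6452, 5762, 2424, 2990, 2993 and 2463 in the same order. Without both libraries that stood apart, 10 members were higher and 9 lower in MDA-MB-231, and 5 higher and 1 lower in HCC70. The calls over all genes without both were 5785 in MDA-MB-231 and 3867 in HCC70. The members that kept their call and direction in MDA-MB-231 under all 26 alternatives run were DNAJB4, EIF2AK3, HERPUD1, HSPA1A, HSPA1B, HSPB8 and PPP1R15A. No call of a member in HCC70 did so. When the MDA-MB-231 libraries were fitted alone, the calls of DNAJB1 (adjusted p = 0.0874), BAG1 (0.0808), TRIB3 (0.158), ATF5 (0.108) and HSPA2 (0.168) in that line were lost. Scaling by library size alone ended the calls of DNAJB1 in HCC70 (0.0731) and BAG1 in MDA-MB-231 (0.0827), and limma voom did not call HSPA2 (0.0848).

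The stress-inducible cytosolic HSP70 genes fell in MDA-MB-231 and not detectably in HCC70. HSPA1A and HSPA1B encode the same inducible chaperone from neighbouring gene copies. HSPA1A stood at 340, 289 and 244 CPM in the MDA-MB-231 vehicle libraries and at 147, 197 and 158 CPM after dexamethasone. All treated libraries were below all vehicle libraries, and the 2 libraries that stood apart were each the highest of their group. The log2 change was -0.80 ± 0.12 (SE, adjusted p = 0.000569), a 1.74-fold lower level. HSPA1B stood at 719, 614 and 522 CPM in vehicle and at 316, 420 and 337 CPM after dexamethasone, a log2 change of -0.79 ± 0.12 (adjusted p = 0.000486). In HCC70 the same genes overlapped between the groups. HSPA1A was at 554, 599 and 605 CPM in HCC70 vehicle and at 626, 589 and 557 CPM after dexamethasone (log2 change 0.01 ± 0.12, adjusted p = 0.986). HSPA1B was at 1127, 1215 and 1231 CPM there in vehicle and at 1268, 1190 and 1132 CPM after dexamethasone (0.01 ± 0.12, adjusted p = 0.998). Their sequences are too alike for counts to be assigned to 1 copy with certainty: the ratio of HSPA1A to HSPA1B counts was 0.464 to 0.495 in all 12 libraries, so their changes are not separate evidence. Summed over both copies, the level went from 910 ± 147 to 525 ± 80.8 CPM (SD, n = 3) in MDA-MB-231 and from 1777 ± 83.4 to 1788 ± 103 CPM in HCC70.

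HSPA2, the testis-enriched HSP70, was called lower in MDA-MB-231 at a level under 1.1 CPM. Its vehicle libraries held 1.07, 0.953 and 0.709 CPM and its treated libraries 0.605, 0.743 and 0.557 CPM. The groups overlapped, since dexamethasone replicate 2 was above vehicle replicate 3. The log2 change was -0.53 ± 0.15 (adjusted p = 0.0289), and the call was lost without dexamethasone replicate 1 (adjusted p = 0.11), dexamethasone replicate 3 (0.126), vehicle replicate 1 (0.132) or vehicle replicate 2 (0.0896). In HCC70, HSPA2 was abundant, with 88.8, 90.1 and 97.9 CPM in vehicle and 99.6, 90.4 and 88.6 CPM after dexamethasone (log2 change 0.01, adjusted p = 0.986). The remaining genes of this group, HSPA4 and HSPH1, are HSP110 proteins that exchange the nucleotide of HSP70. HSPA4 changed by 0.08 in MDA-MB-231 and -0.09 in HCC70 on the log2 scale (adjusted p = 0.521 and 0.536), and HSPH1 by -0.17 and -0.11 (adjusted p = 0.164 and 0.506). None of the 5 cytosolic HSP70 and HSP110 genes passed in HCC70, where 0 had an unadjusted p under 0.05 and 0 were called by DESeq2 or limma voom.

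The small heat shock proteins, which hold unfolded protein in a soluble state without ATP, were called in 1 line each, HSPB1 in HCC70 and HSPB8 in MDA-MB-231. HSPB1 (HSP27) stood at 333, 389 and 326 CPM in HCC70 vehicle and at 474, 480 and 435 CPM after dexamethasone. Every treated library was above every vehicle library, and the log2 change was 0.41 ± 0.087 (adjusted p = 0.0179), 1.32-fold. The call was lost without dexamethasone replicate 1 (adjusted p = 0.0655), dexamethasone replicate 2 (0.085), vehicle replicate 1 (0.107) or vehicle replicate 3 (0.0791). With an offset for the GC content and length of transcripts, HSPB1 had log2 changes of 0.25 in HCC70 (adjusted p = 0.0589) and 0.34 in MDA-MB-231 (adjusted p = 0.00577). It was called higher in both lines when that offset was joined with a replicate block (0.0447 and 0.00501) or with each line fitted alone (0.021 and 0.0191). In MDA-MB-231 HSPB1 was at 169, 141 and 144 CPM in vehicle and at 145, 164 and 150 CPM after dexamethasone (0.02, adjusted p = 0.926), and the difference of the responses did not pass (adjusted p = 0.0561). HSPB8, which works with the cochaperone BAG3 in the removal of misfolded protein, fell in MDA-MB-231. Its libraries there held 11.1, 11.2 and 11 CPM in vehicle and 7.21, 8.23 and 7.63 CPM after dexamethasone (-0.52 ± 0.082, adjusted p = 0.000548). The groups were far apart for their spread. HCC70 held 6.06, 6.99 and 5.74 CPM of HSPB8 in vehicle and 6.25, 6.28 and 6.14 CPM after dexamethasone (-0.01, adjusted p = 0.981).

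DNAJB4, a cytosolic J-domain protein that delivers clients to HSP70, had the largest dexamethasone change of the 41 members, and its direction differed between the lines. In MDA-MB-231 it stood at 13.1, 16.7 and 17.0 CPM in vehicle and at 46.5, 39.2 and 43.5 CPM after dexamethasone. This 2.76-fold rise (log2 change 1.47 ± 0.097, adjusted p = 1.18e-07) separated the groups by more than their ranges. In HCC70 it stood at 15.1, 15.1 and 14.5 CPM in vehicle and at 11.8, 11 and 10.1 CPM after dexamethasone (-0.45 ± 0.098, adjusted p = 0.0197). The treated HCC70 libraries were all lower, but the call was lost without dexamethasone replicate 2 (adjusted p = 0.0743), dexamethasone replicate 3 (0.106), vehicle replicate 1 (0.0843) or vehicle replicate 2 (0.0768). With the GC and length offset the HCC70 change was smaller, at -0.25 (adjusted p = 0.0194). That call was lost when a replicate block was joined with the offset (0.0694). An exon of DNAJB4 overlaps one of GIPC2 on the same strand, so the counts of these genes may share reads.

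DNAJB1 (HSP40), the main inducible J-domain partner of HSP70, rose in both lines. In the fit over all libraries it was the only member called the same way in each. HCC70 held 103, 112 and 101 CPM in vehicle and 129, 130 and 128 CPM after dexamethasone (0.29 ± 0.056, adjusted p = 0.00819). MDA-MB-231 held 130, 123 and 120 CPM in vehicle and 145, 148 and 145 CPM after dexamethasone (0.23 ± 0.056, adjusted p = 0.0152). The groups did not overlap in either line, and the responses did not differ detectably (difference 0.07 ± 0.079 on the log2 scale, adjusted p = 0.617). The HCC70 call was lost without vehicle replicate 1 of that line (adjusted p = 0.0578), and the MDA-MB-231 call without its dexamethasone replicate 3 (0.0544) or vehicle replicate 2 (0.0513). Exons of TECR lie opposite DNAJB1, and the libraries did not mark strand. DNAJB6, a J-domain protein that suppresses aggregation, did not pass (-0.19 in MDA-MB-231, adjusted p = 0.0584, and 0.03 in HCC70, adjusted p = 0.815). It was called lower in MDA-MB-231 with a filter of 5 CPM in 3 libraries, by limma voom and without HCC70 vehicle replicate 3.

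The BAG cochaperones release substrate from HSP70. BAG1 stood at 29, 29.7 and 29.4 CPM in MDA-MB-231 vehicle and at 26.2, 24.1 and 25.2 CPM after dexamethasone (-0.22 ± 0.057, adjusted p = 0.018). The groups were apart by a small step, and the call was lost without dexamethasone replicate 2 (adjusted p = 0.0798), dexamethasone replicate 3 (0.0646), vehicle replicate 2 (0.0555) or HCC70 dexamethasone replicate 1 (0.0555). In HCC70, BAG1 was at 38.0, 35.5 and 35.2 CPM in vehicle and at 36.7, 36.8 and 34.3 CPM after dexamethasone (-0.01, adjusted p = 0.952). BAG3 did not pass in HCC70, although its libraries were apart, with 109, 118 and 120 CPM in vehicle and 162, 155 and 158 CPM after dexamethasone (0.45 ± 0.13, adjusted p = 0.0761). When the HCC70 libraries were fitted alone its adjusted p was 1.19e-05, and without the pair of MDA-MB-231 libraries that stood apart it was 0.000373. Its libraries are given because of this gap between fits, seen in the values. BAG3 in MDA-MB-231 ran from 108 to 165 CPM in vehicle and from 139 to 170 CPM after dexamethasone (adjusted p = 0.44). It was called higher there without MDA-MB-231 vehicle replicate 1 and without the pair of libraries that stood apart (lowest adjusted p = 0.0295).

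No mitochondrial chaperone and no heat shock factor passed in either line in the fit over all libraries, but calls appeared under other settings. HSPA9 (mortalin), HSPD1 (HSP60) and its lid HSPE1 (HSP10) changed by -0.01, 0.10 and -0.16 in HCC70 and by 0.13, 0.12 and 0.22 in MDA-MB-231 on the log2 scale (adjusted p of 0.108 and above). Of these 3 genes, 0 in HCC70 and 2 in MDA-MB-231 had an unadjusted p under 0.05, and DESeq2 and limma voom called 0. HSPD1 in HCC70 was called higher with the GC and length offset (0.28, adjusted p = 0.000584), and HSPA9 there with the offset and the line fitted alone (0.13, adjusted p = 0.0178). In MDA-MB-231, HSPE1 was called higher without dexamethasone replicate 2 (adjusted p = 0.0274), without vehicle replicate 3 (0.047) and without both libraries that stood apart (0.0409), and HSPA9 without vehicle replicate 3 (0.0467). HSPD1 and HSPE1 overlap on opposite strands, so their counts may share reads. HSF1, the master activator of the heat shock genes, stood at 479, 525 and 536 CPM in HCC70 vehicle and at 662, 612 and 614 CPM after dexamethasone (0.29 ± 0.18, adjusted p = 0.402). The HCC70 groups did not overlap. In MDA-MB-231, HSF1 was at 403, 276 and 249 CPM in vehicle and at 206, 297 and 218 CPM after dexamethasone (-0.37 ± 0.18, adjusted p = 0.19), and there the 2 libraries that stood apart were each the highest of their group. HSF1 was called higher in HCC70 with that line fitted alone (adjusted p = 0.0016) and without both libraries that stood apart (0.00524), and lower in MDA-MB-231 without dexamethasone replicate 2 (-0.52, adjusted p = 0.0368) and without both libraries (-0.29, adjusted p = 0.0118). With the GC and length offset its log2 changes were 0.08 in HCC70 and 0.05 in MDA-MB-231 (adjusted p = 0.392 and 0.516), so its direction in MDA-MB-231 depended on the fit. HSF1 shares exons on opposite strands with DGAT1, so part of its counts may come from that gene. HSF2, a factor that works with HSF1, had log2 changes of -0.19 in HCC70 (adjusted p = 0.24) and -0.08 in MDA-MB-231 (adjusted p = 0.543), and -0.22 in the latter with the offset (adjusted p = 0.0403). Of both heat shock factors together, 1 in HCC70 (HSF2) and 0 in MDA-MB-231 had an unadjusted p under 0.05, and DESeq2 and limma voom called 0.

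Of the 3 sensors of ER stress, EIF2AK3 rose in MDA-MB-231. It encodes PERK, the kinase that slows translation when unfolded protein builds up in the ER. Its vehicle libraries there held 14.2, 16.9 and 16.5 CPM and its treated libraries 21.5, 23.9 and 23.4 CPM, with no overlap (0.53 ± 0.075, adjusted p = 0.000208, 1.45-fold). HCC70 held 24.1, 22.0 and 23.4 CPM in vehicle and 23.0, 23.5 and 22.4 CPM after dexamethasone (-0.01 ± 0.074, adjusted p = 0.973). The mean of EIF2AK3 in MDA-MB-231 went from 15.9 to 22.9 CPM, beside 23.1 and 23.0 CPM in HCC70. Antisense transcripts AC062029.1 and AC104134.1 overlap EIF2AK3 exons and cannot be told apart from it in these unstranded counts. ATF6 changed by -0.11 in HCC70 and 0.14 in MDA-MB-231 (adjusted p = 0.381 and 0.152), and ERN1 by 0.10 and -0.22 (adjusted p = 0.694 and 0.255). Without MDA-MB-231 dexamethasone replicate 2, ERN1 was called lower in that line (adjusted p = 0.0444).

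Among the transcription factors of the unfolded protein response, ATF5 was called in MDA-MB-231 and neither XBP1 nor ATF4 was called in either line. XBP1 stood at 128, 129 and 120 CPM in HCC70 vehicle and at 118, 120 and 114 CPM after dexamethasone (-0.10 ± 0.065, adjusted p = 0.453). MDA-MB-231 held 40.0, 42.0 and 41.4 CPM of XBP1 in vehicle and 49.2, 41.1 and 45.0 CPM after dexamethasone (0.13 ± 0.065, adjusted p = 0.189). The treated libraries were all lower in HCC70, the nearest by less than the rounding of these values, and the groups overlapped in MDA-MB-231. ATF4 stood at 212, 220 and 215 CPM in HCC70 vehicle and at 210, 214 and 206 CPM after dexamethasone (-0.04, adjusted p = 0.771). In MDA-MB-231, ATF4 was at 107, 100.5 and 110 CPM in vehicle and at 108, 95.5 and 100.4 CPM after dexamethasone (-0.06, adjusted p = 0.519). ATF5, an ATF4-related factor of the integrated and mitochondrial stress responses, stood at 36.8, 33.0 and 32.6 CPM in MDA-MB-231 vehicle and at 28.1, 30.2 and 27.7 CPM after dexamethasone (-0.25 ± 0.065, adjusted p = 0.019). The groups did not overlap, but the call was lost without dexamethasone replicate 1 (adjusted p = 0.0746), dexamethasone replicate 3 (0.0911) or vehicle replicate 1 (0.0687), and with the GC and length offset the ATF5 change was -0.08 (adjusted p = 0.365). HCC70 held 20.7, 21.1 and 19.2 CPM of ATF5 in vehicle and 20.6, 20 and 21 CPM after dexamethasone (adjusted p = 0.941). Exons of IL4I1 and NUP62 overlap ATF5 on the opposite strand and MIR4751 on the same strand, so their counts may share reads.

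The 12 ER chaperones and folding enzymes passed in neither line in the fit over all libraries. Their median log2 change was -0.06 in HCC70 and 0.07 in MDA-MB-231. HSPA5 (BiP), the ER HSP70 that holds the sensors inactive, stood at 375, 383 and 351 CPM in HCC70 vehicle and at 345, 344 and 347 CPM after dexamethasone (-0.10 ± 0.068, adjusted p = 0.477). In MDA-MB-231, HSPA5 was at 490, 561 and 562 CPM in vehicle and at 626, 551 and 598 CPM after dexamethasone (0.14 ± 0.068, adjusted p = 0.19). The treated HCC70 libraries of HSPA5 were all just below vehicle, and those of MDA-MB-231 overlapped with vehicle. HSP90B1 (GRP94) had the largest value of the 12 in MDA-MB-231, 0.21 (adjusted p = 0.0893), followed by SDF2L1, a partner of the ER J-domain proteins, at -0.18 (0.199), the lectin chaperone CANX at 0.18 (0.0922) and the disulphide isomerase PDIA6 at 0.15 (0.0753). In HCC70 the largest were -0.23 for the secreted survival factor MANF (adjusted p = 0.16) and -0.15 for HSPA13 (0.248). The remaining CALR, PDIA4, DNAJB9, DNAJC3 and CRELD2 stayed between -0.08 and 0.10 in both lines. An unadjusted p under 0.05 was found for 2 of the 12 in HCC70 (HSPA13, MANF) and 3 in MDA-MB-231 (HSP90B1, CANX, PDIA6), and DESeq2 and limma voom each called PDIA6 in MDA-MB-231 and 0 of the 12 in HCC70. Without MDA-MB-231 dexamethasone replicate 2, HSP90B1, CANX and PDIA6 were called higher in that line (adjusted p = 0.0291, 0.0391 and 0.0392), as they were with a filter of 5 CPM in 3 libraries (0.0494, 0.045 and 0.0285), and HSP90B1 also without its vehicle replicate 3 (0.0475). The change of CANX in HCC70 was -0.03 (adjusted p = 0.88) but 0.12 (adjusted p = 0.0391) with the GC and length offset. That offset also moved the median change of all genes in HCC70, from -0.01 to 0.07.

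HERPUD1, an ER membrane protein that helps to remove misfolded protein and carries the ERSE-II shown above, was the gene of ER-associated degradation that changed. MDA-MB-231 held 15.7, 18.5 and 17.9 CPM in vehicle and 22.6, 20.8 and 21.3 CPM after dexamethasone (0.31 ± 0.068, adjusted p = 0.00691, 1.24-fold), with all treated libraries above vehicle. HCC70 held 33.7, 33.4 and 33.1 CPM in vehicle and 31.5, 29.3 and 29.4 CPM after dexamethasone, all lower but not past the threshold (-0.15 ± 0.067, adjusted p = 0.245). With the HCC70 libraries fitted alone, HERPUD1 was called lower there (adjusted p = 0.0416). SEL1L, the scaffold of the HRD1 ubiquitin ligase, changed by 0.00297 in HCC70 and 0.12 in MDA-MB-231 (adjusted p = 1 and 0.238), and EDEM1, which hands glycoproteins to degradation, by 0.08 and -0.15 (adjusted p = 0.563 and 0.141).

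On the ATF4 axis, PPP1R15A fell strongly in MDA-MB-231. It encodes GADD34, the phosphatase subunit that reverses the translational block set by PERK. Its libraries there held 72.5, 65.8 and 70.9 CPM in vehicle and 40.4, 43.2 and 39.7 CPM after dexamethasone (-0.76 ± 0.063, adjusted p = 1.2e-06), a 1.7-fold lower level with the groups far apart. HCC70 held 13.9, 13.1 and 14.2 CPM in vehicle and 15.7, 14.1 and 15.1 CPM after dexamethasone (0.12 ± 0.065, adjusted p = 0.322). With PERK higher and GADD34 lower, the transcripts of the kinase and of the phosphatase subunit that act on the same factor moved in opposite directions in MDA-MB-231.

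TRIB3, a pseudokinase that ATF4 induces and that restrains it, moved in opposite directions in the lines. HCC70 held 90.6, 89.1 and 97.2 CPM in vehicle and 122, 117 and 121 CPM after dexamethasone, with no overlap (0.37 ± 0.089, adjusted p = 0.0312). MDA-MB-231 held 17.8, 15.9 and 13.5 CPM in vehicle and 11.5, 13.9 and 12.4 CPM after dexamethasone (-0.32 ± 0.092, adjusted p = 0.0321), and there dexamethasone replicate 2 was above vehicle replicate 3. Both calls of TRIB3 were close to the threshold. The HCC70 call was lost without any 1 of the 6 HCC70 libraries (adjusted p = 0.0977, 0.083 and 0.11 without dexamethasone replicates 1 to 3 and 0.138, 0.136 and 0.0532 without vehicle replicates 1 to 3) and without MDA-MB-231 dexamethasone replicate 3 (0.0502). The MDA-MB-231 call was lost without its dexamethasone replicate 1 (0.148) or 3 (0.107) or its vehicle replicate 1 (0.119) or 2 (0.0829), and with the GC and length offset the change was -0.10 (adjusted p = 0.198). CHAC1, a glutathione-degrading enzyme induced by ATF4, ran from 0.92 to 1.75 CPM in MDA-MB-231 vehicle and from 0.804 to 1.21 CPM after dexamethasone (-0.53 ± 0.22, adjusted p = 0.128), and its change in HCC70 was 0.12 ± 0.18 (adjusted p = 0.767). It was called lower in MDA-MB-231 without dexamethasone replicate 2 or vehicle replicate 3 of that line (lowest adjusted p = 0.0133).

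**Figure D2:**
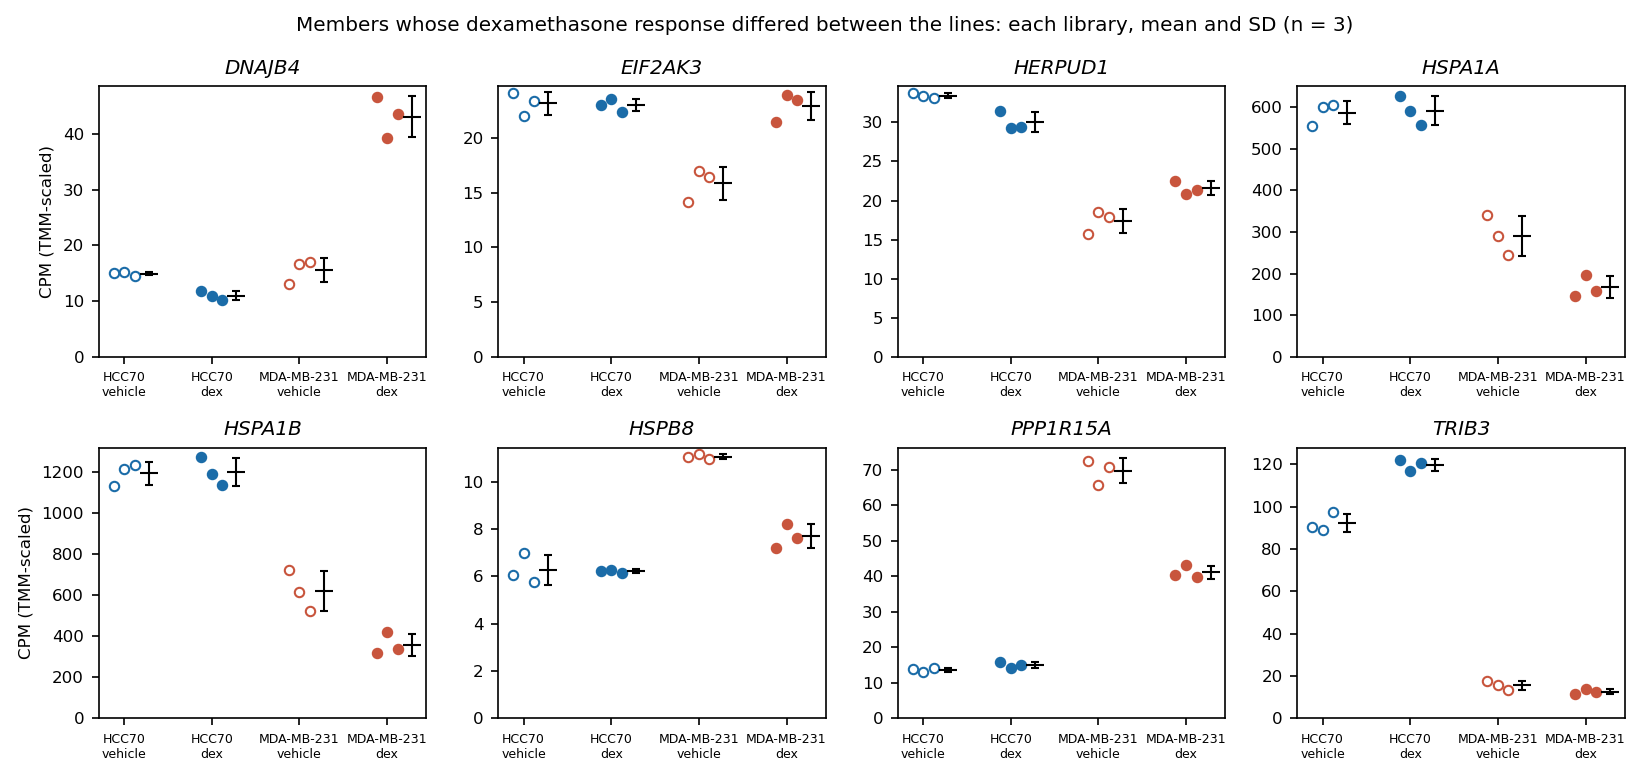
CPM (y axis, from 0) of each library (points, 3 a group) with the mean and SD beside them, for the 8 members whose dexamethasone responses differed between the lines, with open points for vehicle and filled for dexamethasone, HCC70 in blue and MDA-MB-231 in red. For DNAJB4, EIF2AK3, HERPUD1, HSPA1A, HSPA1B, HSPB8 and PPP1R15A the MDA-MB-231 groups are apart, and TRIB3 overlaps there.

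The difference of the 2 responses was tested directly, as the HCC70 change minus the MDA-MB-231 change on the log2 scale. It passed for 8 of the 41 members (19.5%), 5 higher and 3 lower. Of all genes 12.1% passed, 6.96% higher and 5.09% lower, and of the abundant genes 21.3%, so the share of the members was above that of all genes and near that of abundant ones. The higher members were PPP1R15A (0.89 ± 0.090, adjusted p = 2.49e-05), HSPA1A (0.81 ± 0.17, 0.0099), HSPA1B (0.80 ± 0.17, 0.00917), TRIB3 (0.70 ± 0.13, 0.00363) and HSPB8 (0.51 ± 0.12, 0.0138). The lower members were DNAJB4 (-1.91 ± 0.14, adjusted p = 8.38e-07), EIF2AK3 (-0.54 ± 0.11, 0.00517) and HERPUD1 (-0.46 ± 0.095, 0.00752). For 6 of these 8 the change was called in MDA-MB-231 and not in HCC70, and DNAJB4 and TRIB3 were called in opposite directions. Members called in a single line whose difference did not pass were HSPA2 (adjusted p = 0.0609), ATF5 (0.0736), BAG1 (0.0967) and HSPB1 (0.0561). The split of 5 higher and 3 lower was 5 and 5 with upper quartile scaling, 5 and 6 with library size alone, 9 and 3 with the GC and length offset, 11 and 9 without MDA-MB-231 dexamethasone replicate 2, 11 and 7 without MDA-MB-231 vehicle replicate 3, and 7 and 9 without both libraries that stood apart. Over all genes, 3391 calls for the difference became 3764, 4264, 3799, 6259, 5789 and 6206 in the same order. The 8 differences of members kept their call under each of these settings. With the GC and length offset that of TRIB3 was 0.37 (adjusted p = 0.00152) and that of HERPUD1 -0.26 (adjusted p = 0.0345). The call of HERPUD1 was lost with the GC and length offset in a fit that also had a replicate block (adjusted p = 0.0717).

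GC content moved with the changes. Across the 41 members, Spearman's rho between the GC content of the longest transcript and the log2 change was 0.658 in HCC70 and -0.499 in MDA-MB-231. The 16560 tested genes with a mean of at least 1 CPM gave 0.47 and -0.431, and all genes of a comparison share its libraries, so these are descriptions. The highest GC contents belonged to SDF2L1 (65.5%), HSF1 (64.7%) and HSPB1 (64.3%) and the lowest to DNAJB4 (33.1%) and HSPA13 (34.9%). Of the members that fell in MDA-MB-231, HSPA1A, HSPA1B, PPP1R15A, TRIB3 and ATF5 lie between 58.7% and 60.9%, while HSPA2 (43.9%), BAG1 (48.6%) and HSPB8 (53.8%) lie lower. With the GC and length offset, the log2 change in MDA-MB-231 was -0.62 for HSPA1A (adjusted p = 5.33e-06), -0.65 for HSPA1B (1.27e-05), -0.62 for PPP1R15A (8.16e-07), -0.52 for HSPB8 (0.000207), 1.35 for DNAJB4 (2.13e-10), 0.48 for EIF2AK3 (5.2e-05) and 0.24 for HERPUD1 (0.0058). Under that offset 6 members were higher and 1 lower in HCC70, in place of 3 and 1. BAG3, CANX, EDEM1 and HSPD1 were the additions, and HSPB1 was lost. Over all genes that offset gave 2329 calls in HCC70 in place of 1114, and moved the median change there from -0.01 to 0.07. In MDA-MB-231 it gave 5 higher and 8 lower, in place of 4 and 8: HSPB1 was added as higher, HSPH1, HSF2 and EDEM1 were added as lower, and HSPA2, ATF5 and TRIB3 were lost. The part of GC content in the changes was not tested beyond this offset.

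**Figure D3:**
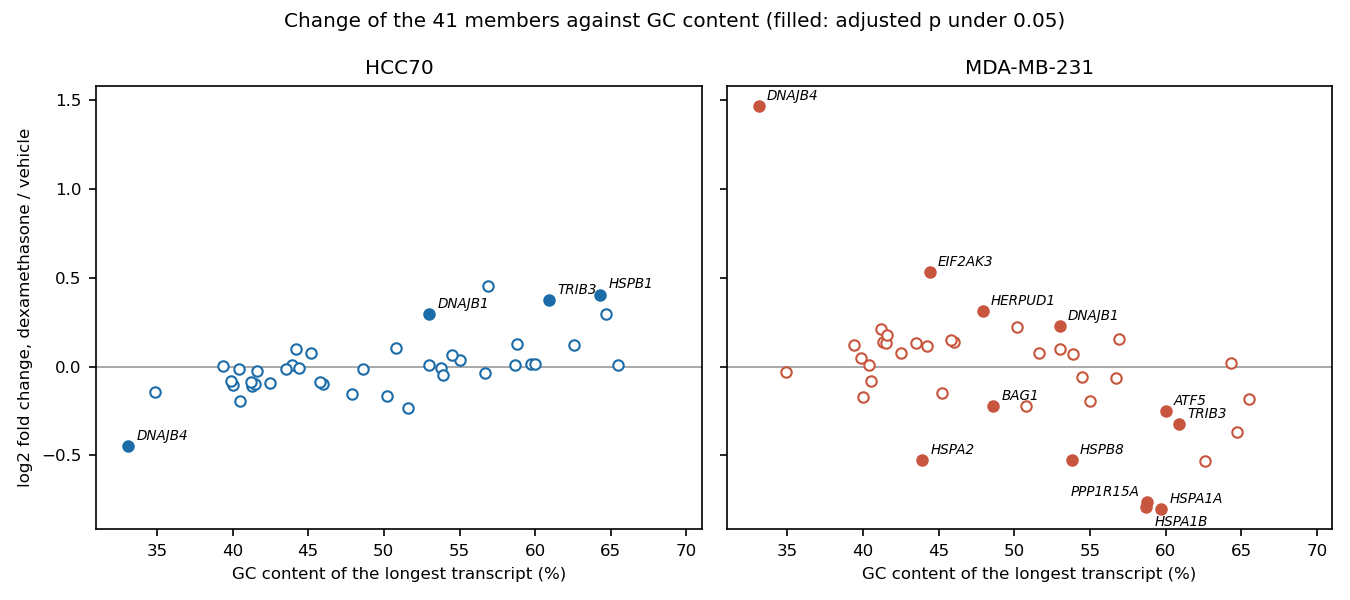
Log2 change after dexamethasone (y axis) against the GC content of the longest transcript in percent (x axis) for the 41 members in HCC70 (left) and MDA-MB-231 (right), with filled points where the adjusted p was under 0.05. Points rise with GC content in HCC70 and fall with it in MDA-MB-231, with DNAJB4 (33.1% GC) at 1.47 in the latter.

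The lines differed far more from each other than either did after dexamethasone. In vehicle, 38 of the 41 members (92.7%) differed between HCC70 and MDA-MB-231, 19 higher and 19 lower in HCC70, where 79.2% of all genes did so (39.2% higher, 40% lower). Of the genes with a mean of at least 20 CPM, 85.4% differed, near the share of the 34 members above that level (31, or 91.2%). The vehicle libraries of the lines did not overlap for 38 members, 92.7% of the 41, against 80.3% of all genes. DNAJB4, BAG3 and SEL1L did not pass (log2 difference -0.06, -0.22 and -0.10). Without MDA-MB-231 vehicle replicate 1, DNAJB4 and SEL1L were called lower in HCC70 (adjusted p = 0.0483 and 0.0238), as was BAG3 without MDA-MB-231 vehicle replicate 3 (0.00719) and with the GC and length offset (-0.47, adjusted p = 0.001). Per kilobase of transcript, the highest member level in HCC70 vehicle was that of HSPA1B, 472 CPM per kilobase, and the lowest that of ERN1, 0.887. In MDA-MB-231 vehicle the highest was CALR, 384 CPM per kilobase, and the lowest HSPA2, 0.169.

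The 5 members with the largest folds towards HCC70 in vehicle were HSPA2, CRELD2, TRIB3, CHAC1 and SDF2L1. HSPA2 held 88.8, 90.1 and 97.9 CPM in HCC70 and 1.07, 0.953 and 0.709 CPM in MDA-MB-231 (log2 difference 6.66 ± 0.13). CRELD2, a secreted ER stress protein with an ERSE, held 123, 129 and 120 CPM against 20.1, 17.2 and 17.8 CPM (2.76 ± 0.068). TRIB3 held 90.6, 89.1 and 97.2 CPM against 17.8, 15.9 and 13.5 CPM (2.55 ± 0.095). In each of these the lowest HCC70 library was several times the highest MDA-MB-231 library. CHAC1 held 6.6, 7.62 and 8.7 CPM against 1.75, 1.45 and 0.92 CPM (2.47 ± 0.2). SDF2L1 held 22.8, 22.4 and 21.4 CPM against 7.32, 6.07 and 6.53 CPM (1.74 ± 0.092). CRELD2 overlaps exons of ALG12 on the opposite strand, so part of its counts may come from that gene. XBP1 and ATF4, 2 of the main factors of the response, were also higher in HCC70, with log2 differences of 1.61 ± 0.067 and 1.02 ± 0.061. The same held for HSPB1 (1.21 ± 0.088), HSPA1A (1.01 ± 0.12), HSPA1B (0.94 ± 0.12), HERPUD1 (0.94 ± 0.068), HSF1 (0.73 ± 0.18) and EIF2AK3 (0.55 ± 0.075), and for PDIA4, PDIA6, BAG1, ERN1, DNAJC3 and CALR, which lay between 0.20 and 0.42. Of 24 alternatives, ERN1 kept its call in 11, and CALR and DNAJC3 kept theirs in 20 each. CALR was at 0.06 with the GC and length offset (adjusted p = 0.153) and at 0.10 with upper quartile scaling (0.103), and DNAJC3 at 0.15 with that scaling (0.115). ERN1 was at 0.16 with the offset (adjusted p = 0.23), and its call was lost without HCC70 vehicle replicate 3 (0.202), MDA-MB-231 vehicle replicates 1, 2 or 3 (0.054, 0.072 and 0.143) or HCC70 dexamethasone replicates 1 or 3 (0.0543 and 0.0552). That of DNAJC3 was lost without MDA-MB-231 vehicle replicate 1 (0.0728).

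The 5 members with the largest folds towards MDA-MB-231 in vehicle were PPP1R15A, HSPA13, CANX, EDEM1 and HSPD1. PPP1R15A held 13.9, 13.1 and 14.2 CPM in HCC70 against 72.5, 65.8 and 70.9 CPM in MDA-MB-231 (-2.34 ± 0.066), the opposite direction to TRIB3 and CHAC1, which are likewise ATF4 targets. HSPA13, a microsomal HSP70 relative, held 15.8, 14.8 and 14.2 CPM against 41.5, 47.3 and 46.2 CPM (-1.59 ± 0.065). CANX held 366, 357 and 343 CPM against 792, 931 and 917 CPM (-1.31 ± 0.068). EDEM1 held 39.3, 39.1 and 39.2 CPM against 84.9, 93.8 and 86.5 CPM (-1.17 ± 0.065). HSPD1 held 143, 152 and 139 CPM against 289, 314 and 339 CPM (-1.12 ± 0.069). For all of these the groups were apart, with MDA-MB-231 at least 2 times as high in the fit. HSPA5 held 375, 383 and 351 CPM against 490, 561 and 562 CPM (-0.54 ± 0.068), so BiP was lower in HCC70 while CRELD2 and SDF2L1 were higher. All 3 mitochondrial chaperones were lower in HCC70 (HSPA9 -1.10, HSPD1 -1.12, HSPE1 -0.57), as were the HSP110 genes HSPA4 (-1.11) and HSPH1 (-0.66), HSF2 (-1.09), HSP90B1 (-0.83), HSPB8 (-0.82), ATF5 (-0.75) and DNAJB6 (-0.67). The differences of DNAJB9, DNAJB1, MANF and ATF6 were small, from -0.33 to -0.17. The MANF call was lost without vehicle replicate 3 of HCC70 (adjusted p = 0.122) or of MDA-MB-231 (0.109), and that of ATF6 without HCC70 vehicle replicate 2 (0.0664) or 3 (0.0673) or MDA-MB-231 vehicle replicate 2 (0.104). Of the 12 ER chaperones and folding enzymes, 6 were higher and 6 lower.

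**Figure D4:**
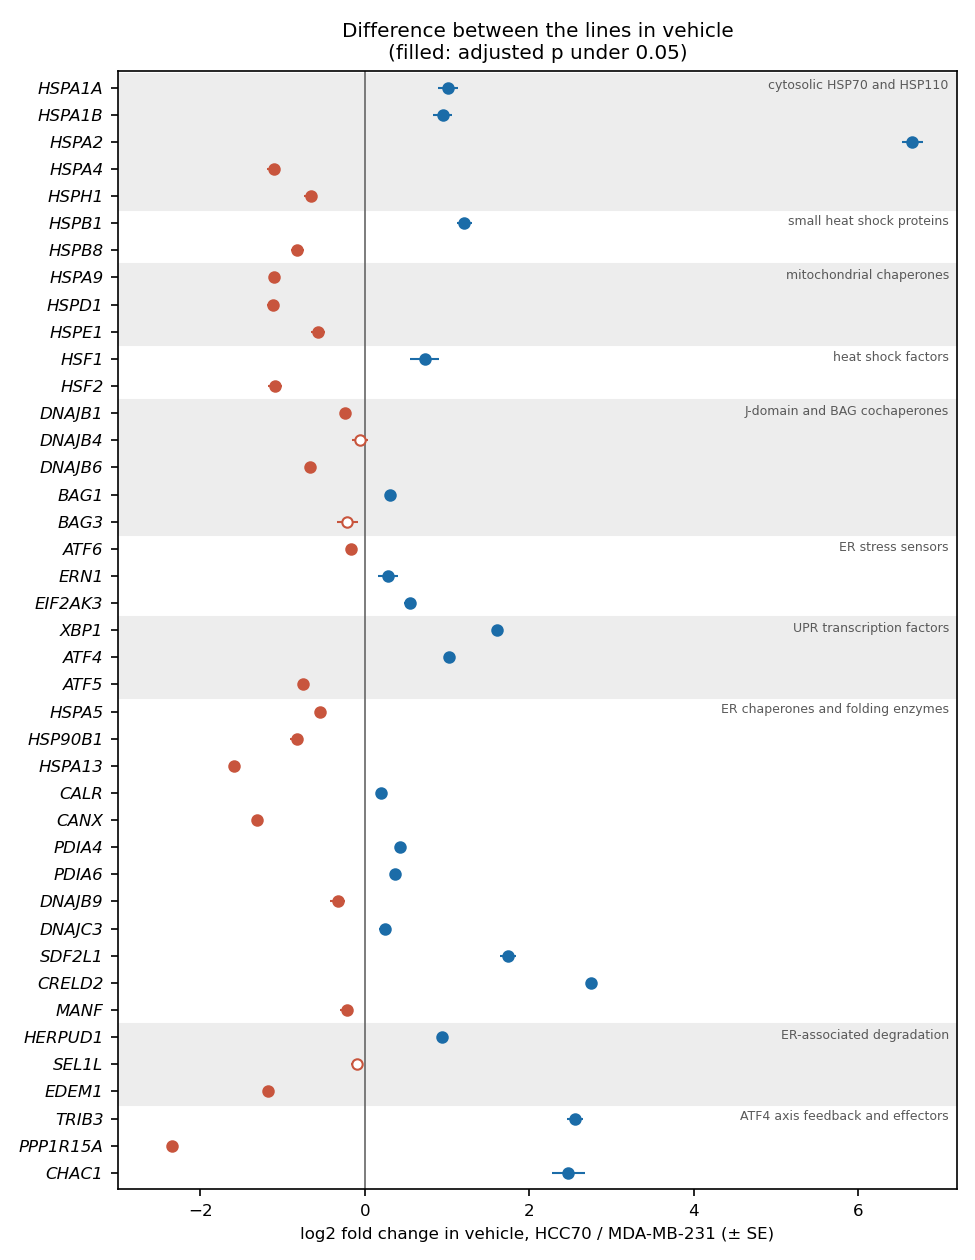
Log2 difference between HCC70 and MDA-MB-231 in vehicle (x axis, ± SE from the model, n = 3 libraries a line) for the 41 members (y axis, grouped by role), blue where HCC70 is higher and red where it is lower, filled where the adjusted p was under 0.05. HSPA2 stands at 6.66, CRELD2 and TRIB3 follow at 2.76 and 2.55, and PPP1R15A stands lowest at -2.34.

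Other genes of the same pathways, 100 that were tested, were listed beside the members. In HCC70, 3 of them rose and 3 fell (6%), and in MDA-MB-231, 4 rose and 12 fell (16%), with medians of -0.04 and 0.01. The shares over all genes tested were 3.96% and 14.6%. The 32 other cytosolic and mitochondrial chaperones gave 0 calls in HCC70 by edgeR, where 3 had an unadjusted p under 0.05 and DESeq2 and limma voom called 0. In MDA-MB-231, 1 of them rose and 4 fell. Those that fell included HSPA6, a strictly stress-inducible HSP70, at 1.05, 1.01 and 1.04 CPM in vehicle and 0.391, 0.646 and 0.542 CPM after dexamethasone (-0.98 ± 0.19, adjusted p = 0.00352). The autophagy receptor SQSTM1 (-0.52 ± 0.069, adjusted p = 0.00013) and the J-domain gene DNAJB2 (-0.46 ± 0.089, adjusted p = 0.00289) fell there as well. Of 29 other ER folding and degradation genes, 1 was called higher in HCC70, ERO1LB, at 0.0202 CPM in vehicle and 0.0779 CPM after dexamethasone. At those levels each library held few counts. DESeq2 called it as well, but limma voom called 0 of the 29 in HCC70. In MDA-MB-231, PDIA5 rose (0.25, adjusted p = 0.0204) and DERL3 and WFS1 fell (-0.52 and -0.45, adjusted p = 0.0164 and 0.0342).

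The 17 other sensors and partners held a further gene that moved in opposite directions. TXNIP, a thioredoxin-binding protein that links ER stress to the inflammasome, went from 151 to 121 CPM in HCC70 (-0.32 ± 0.068, adjusted p = 0.0159) and from 302 to 565 CPM in MDA-MB-231 (0.90 ± 0.068, adjusted p = 4.29e-07). MAP3K5, the kinase ASK1, rose in HCC70 (0.28, adjusted p = 0.0193) and NFE2L2 (NRF2) fell there (-0.26, adjusted p = 0.0335), while TRAF2 and CREB3L2 fell in MDA-MB-231 (-0.47 and -0.18, adjusted p = 0.00807 and 0.0383). Of the 22 other ATF4 targets, STC2 rose (0.42, adjusted p = 0.00628) and the cystine transporter SLC7A11 fell (-0.58, adjusted p = 0.00187) in HCC70. In MDA-MB-231, JDP2 rose (0.50, adjusted p = 0.00583) and 4 fell, among them CTH (-0.40, adjusted p = 0.0276), NUPR1 (-0.36, 0.0339) and SESN2 (-0.50, 0.038). In vehicle 14 of these 22 were higher and 5 lower in HCC70, with a median log2 difference of 1.13, beside -0.03 over all genes. Of all genes tested, 79.2% differed in that comparison, 39.2% higher and 40% lower.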

How the data were processed

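Gene counts of 12 libraries were deposited by the authors as whole numbers, 1 per gene and library, unscaled. Per the submitters' processing notes, TopHat 1.4.1, Cufflinks 1.3.0, bedtools and the hg19 build were used, and the notes do not say which tool counted. Per the labels' protocols, libraries were polyA-selected, made with a transposase and did not mark strand. Depth was 106345287 to 123218973 counts per library, and 3 counts were taken as the limit that a count of 0 allows.

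From these counts, edgeR 4.0.16 in R 4.3.3 was run with its filter (minimum count 10), TMM scaling, 1 mean for each of the 4 groups over all 12 libraries (8 residual degrees of freedom) and the robust quasi-likelihood test, two-sided, with Benjamini-Hochberg adjustment over 28141 genes at 0.05. The same fit gave each line's response, their difference and the vehicle comparison. It was also run on counts simulated from its own means and spread. These held no shift of single libraries with GC content, so they cannot show how such a shift affects the calls. Alternatives were other scalings and filters, DESeq2 1.42.0, limma 3.58.1 voom, no robust estimation, each line alone, each library left out, 2 MDA-MB-231 libraries left out, a replicate block, and an offset for GC content and length (mgcv 1.9.3). GENCODE 29 (GRCh38) was used only for GC content, length and exon overlap, and 89.8% of tested genes had a GC value. Replicate numbers were not used to pair libraries, except in the replicate block.

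Per-library values are given for members called under dexamethasone or for the difference, for the 5 largest folds in each direction between lines, and for HSPA1A, HSPA5, HSF1, ATF4 and XBP1. Of other pathway lists, up to 4 genes per list and line were named by lowest adjusted p. One gene that this rule picks is not reported here. The members and lists were chosen with earlier results of these data known.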

Additional observations from a re-analysis of the deposited data

Results flagged for a closer look

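The response to dexamethasone differed between HCC70 and MDA-MB-231 for 8 members by the test of the difference itself (edgeR, HCC70 change minus MDA-MB-231 change, log2 scale). The difference was 0.8876 for PPP1R15A, which encodes GADD34 (adjusted p = 2.49e-05), and 0.6969 for the pseudokinase TRIB3 (adjusted p = 0.00363). It was 0.8128 for HSPA1A and 0.7978 for its near copy HSPA1B (adjusted p = 0.0099 and 0.00917), and 0.5148 for the small heat shock protein HSPB8 (adjusted p = 0.0138). It was -1.912 for the J-domain gene DNAJB4 (adjusted p = 8.38e-07), -0.5422 for EIF2AK3, which encodes PERK (adjusted p = 0.00517), and -0.4641 for HERPUD1 of ER-associated degradation (adjusted p = 0.00752).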

How the results depend on the processing

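With 3 libraries a group, single calls near the threshold depended on the fit. Over all settings, counts of called genes stayed within 1.5 times their value in 300 cases and moved further in 100. Values of single members stayed on their side of the threshold in 3886 cases, gained a call in 120 and lost it in 89. They reversed in 5 where either fit gave a call. A change of sign between values that were not called was kept among the 3886. The causes were not tested. Against a median of all genes of -0.03 in vehicle, upper quartile scaling gave -0.12 and library size alone -0.11, and for the difference library size alone gave -0.12. The GC and length offset moved the median of all genes from -0.01 to 0.07 in HCC70 and to -0.04 in MDA-MB-231. For the difference it moved that median from -0.01 to 0.11.

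Counts are of members first, then of the 100 other pathway genes, whose counts were 3 higher and 3 lower in HCC70, 4 and 12 in MDA-MB-231, and 11 and 5 for the difference. Lower members for the difference were 5 with upper quartile scaling and 6 with library size alone (other genes 10). Without a low-count filter 7 other genes were higher for the difference. With the strict filter (5 CPM in 3 libraries), 7 members and 11 other genes were higher in MDA-MB-231, and 8 and 13 lower for the difference. DESeq2 gave 8 higher and 5 lower members for the difference, and 6 and 8 other genes higher in HCC70 and MDA-MB-231. With each line alone, HCC70 had 5 higher and 3 lower members (other genes 10 and 8), and MDA-MB-231 had 4 lower members (other genes 2 higher, 3 lower). Over all genes those fits gave 4828 calls in HCC70 in place of 1114, and 2116 in MDA-MB-231 in place of 4110. Without the MDA-MB-231 libraries vehicle 1 and dexamethasone 2, HCC70 had 5 members higher (other genes 10 higher, 6 lower), MDA-MB-231 had 10 higher (other genes 13), and 9 members were lower for the difference (other genes 18 higher, 17 lower).

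Replicate numbers are not stated to pair libraries, and same-numbered libraries correlated at -0.104, 0.0428 and -0.013 in HCC70 and -0.419, -0.208 and 0.187 in MDA-MB-231. Libraries with different numbers ran from -0.0936 to 0.105 in HCC70 and from -0.455 to 0.548 in MDA-MB-231. The highest there was vehicle 1 with dexamethasone 2. With a replicate block, 0 members were called higher and 0 lower in HCC70 (other genes 1 and 1), 5 members lower in MDA-MB-231 (other genes 5), and 3 other genes higher and 1 lower for the difference. Over all genes the block gave 481 calls in HCC70, 2551 in MDA-MB-231 and 1480 for the difference. In MDA-MB-231 the replicate block ended the calls of DNAJB1, BAG1, TRIB3 and ATF5 (adjusted p = 0.0689, 0.0644, 0.0829 and 0.0742). The GC and length offset gave 6 higher members in HCC70 (other genes 16), 10 other genes higher in MDA-MB-231, and 9 members and 19 other genes higher for the difference. With the replicate block added to it, 5 members were higher and 0 lower in HCC70 (other genes 12 higher), 8 other genes were higher in MDA-MB-231 and 9 members higher for the difference. With each line alone, an alternative chosen after seeing the data, the offset gave 9 higher members and 23 other genes in HCC70 and 5 lower other genes in MDA-MB-231. Among values called with or without the offset, directions reversed under it for CANX in HCC70 (0.1228, and 0.1274 with each line alone). The same held for HSPA9 in HCC70 with each line alone (0.1253) and for the difference of HSPD1 (0.289, and 0.2903 with the replicate block). Values that were called in neither fit could also change sign, as HSF1 did in MDA-MB-231.

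With 1 library left out at a time, members ranged from 0 to 4 higher and 0 to 1 lower in HCC70, 3 to 9 higher and 4 to 10 lower in MDA-MB-231, 5 to 11 higher and 3 to 9 lower for the difference, and 17 to 19 higher and 17 to 21 lower in vehicle. Other genes ranged from 1 to 5 and 1 to 3 in HCC70, 3 to 17 and 4 to 16 in MDA-MB-231, 4 to 16 and 1 to 15 for the difference, and 46 to 50 and 38 to 40 in vehicle.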
